A study of Mus musculus with 8 samples.

Results

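The 7 genes described here, Mbp, Pmp22, Prx, Mag, Sox10, Egr2 and S100b, are genes of myelinating Schwann cells, and they were followed in whole skeletal muscle as a reading of its nerve content. They were chosen by name: 12 non-control probes of 41174 on the array carried 1 of the 7 gene symbols, and all 7 genes were among the 16016 that entered the test, of 27398 gene names. RNA came from the tibialis anterior, a mostly fast-twitch shin muscle, of 8-week-old males on a C57BL/6 background. Prep1deltaSM mice (n = 4) had Prep1 ablated in skeletal muscle, and Prep1f/+ mice (n = 4) carried a floxed Prep1 allele. Each mouse gave 1 single-colour array. The promoter or Cre line behind the ablation is not given in the sources used here.

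Schwann cells wrap the motor and sensory axons that run through muscle, and their membrane is compacted into myelin by a small set of abundant proteins. SOX10 marks the lineage and is needed for the onset of Egr2, and EGR2 (Krox20) in turn drives the genes of the myelin sheath. A muscle sample holds such cells only in its nerve branches and at the synapse, where non-myelinating terminal Schwann cells cap the nerve ending. Mbp and Mag are also expressed by oligodendrocytes of the central nervous system, S100b also by melanocytes and adipocytes, and Egr2 is also an immediate early gene. In whole muscle, fewer Schwann cells and less RNA per Schwann cell cannot be told apart.

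The probes decide what was read for each gene, and the first 30 of 60 bases are shown for 5 of the genes whose signals the results rest on, in the strand printed on the array, with positions in mm9, the build of the files. Pairs of probes are shown for Mag and Sox10, whose 2 probes differed in how many arrays detected them. The 2 Pmp22 probes differed in this too, and only the one that stood for the gene is shown. The position of each probe within exons or UTRs was not settled here.
Pmp22 A_51_P258529 (chr11:62972914-62972973, plus strand): gccaccaactgtagatgtatatacggtgtc
Prx A_52_P315837 (chr7:28304333-28304392, plus strand): tgagtagccacgctgagtaccaggtagttg
Mag A_51_P435428 (chr7:31684231-31684290, minus strand): tatttattgctatccctttcctggtctcct
Mag A_52_P375021 (chr7:31692038-31692097, minus strand): ggaccccatccttaccatcttcaaggagaa
Sox10 A_51_P346704 (chr15:78985505-78985564, minus strand): tgccttgcaccctttgctccagcgatacct
Sox10 A_52_P192625 (chr15:78986883-78986942, minus strand): tggacatcggggagatcagccacgaggtaa
Egr2 A_51_P173043 (chr10:67004758-67004817, plus strand): gtagccaaatttcaggtgagaatgtgcttc
The first probe named for Mag and for Sox10 was the brighter and stood for the gene. It was well above background on all 8 arrays, as were the probes that stood for the other 5 genes. The second Mag probe was well above background on 5 arrays, 2 of Prep1deltaSM and 3 of Prep1f/+. The second Sox10 probe was well above background on 0 arrays.

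The labels were checked on Pknox1, the gene that encodes Prep1. Its log2 signal averaged -2.04 ± 0.19 in Prep1deltaSM muscle and -0.28 ± 0.18 in Prep1f/+ muscle (SD, n = 4 each), a difference of -1.76 ± 0.13 (SE; adjusted p = 0.0072, limma). The adjusted p was 0.062 with slide as a block, 0.066 without Prep1f/+ replicate 2, 0.064 without Prep1f/+ replicate 3 and 0.074 without Prep1deltaSM replicate 2. Each array had 43379 non-control spots, 23787 to 27123 of them well above background, and 4 slides held 1 array of each genotype. Signals are log2 intensities minus the log2 of the array's 75th percentile, so a value of 0 is a spot as bright as that percentile. Precision is limited by the number of arrays.

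No myelin gene differed between genotypes past the threshold, and 1 Prep1f/+ muscle carried more of nearly all of them than any other. At an adjusted p under 0.05 (limma, over all 16016 genes), 0 of the 7 genes passed, as did 0.00624% of all genes. At an unadjusted p under 0.05, 0 of 7 passed, against 15.9% of all genes. Of the 7 genes, 3 were higher and 4 lower in Prep1deltaSM muscle, with a median difference of -0.09, and all 7 had overlapping groups, where 10.5% of all genes had groups that did not overlap. Prep1f/+ replicate 3 gave the highest value of the 8 arrays for 6 of the 7 genes, against 15.8% of 16009 genes with a value on every array.

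**Figure D1:**
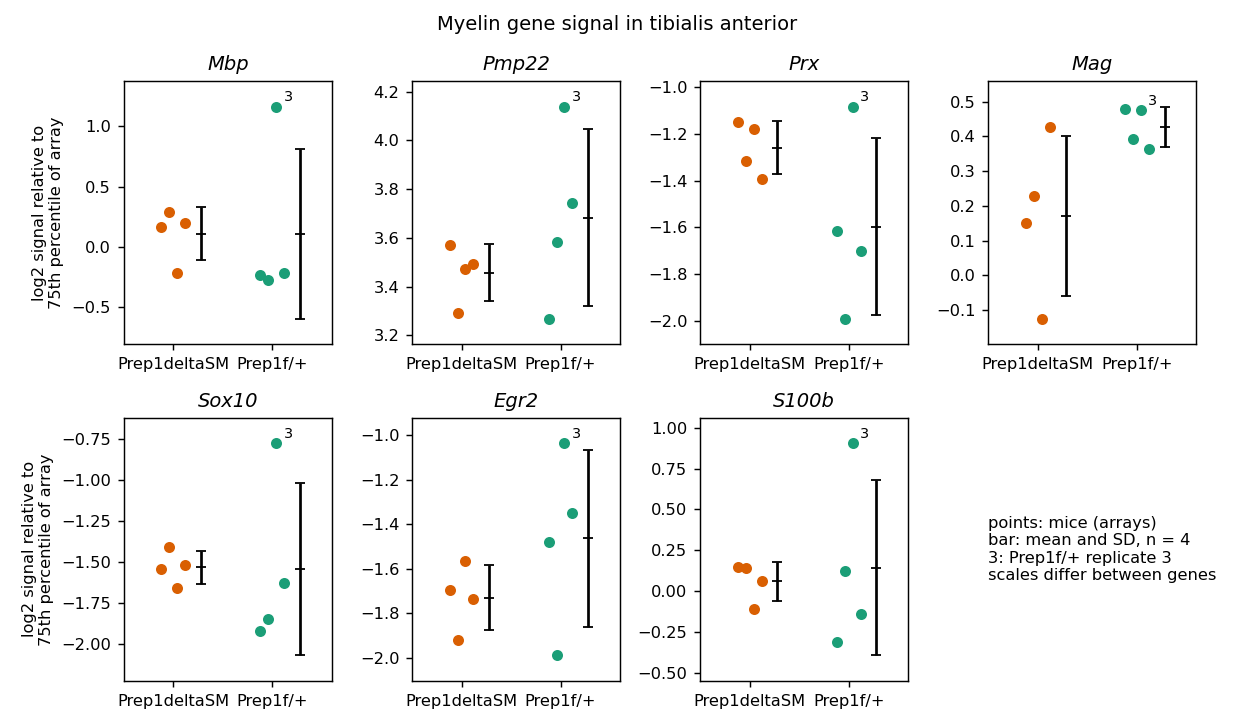
Log2 signal of each gene, with the array's 75th percentile set to 0 (vertical axis, own scale per gene) for Prep1deltaSM mice (left, orange) and Prep1f/+ mice (right, green). Points are mice and bars are the mean with SD (n = 4 each). The point marked 3 is Prep1f/+ replicate 3, which is the highest of all 8 in every panel but that of Mag.

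Mbp encodes myelin basic protein, which holds the inner faces of the compact myelin membrane together. Its log2 signal was 0.17, 0.29, -0.21 and 0.20 in Prep1deltaSM replicates 1 to 4, against -0.23, -0.28, 1.16 and -0.22 in Prep1f/+ replicates 1 to 4. Prep1f/+ replicate 3 stood far above the other 7, whose values spanned a narrow band, and the groups overlapped. The mean was 0.11 ± 0.22 in Prep1deltaSM muscle and 0.11 ± 0.70 in Prep1f/+ muscle (SD, n = 4 each), a difference of 0.00 ± 0.32 (SE; 95% confidence interval -0.73 to 0.73; adjusted p = 0.999, limma). Prep1f/+ replicate 3 lay 1.40 log2 units above the mean of the other 3 Prep1f/+ arrays, or 2.65-fold. The 10 spots of this probe on each array had a typical SD of 0.07, which covers the error between spots of 1 array and not that between mice or hybridisations. The spread of Mbp within genotypes, 0.52, exceeded that of 91.6% of the genes tested.

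With Prep1f/+ replicate 3 left out, the 4 Prep1deltaSM values of Mbp all lay above the 3 Prep1f/+ values. The difference was then 0.35 ± 0.13 (SE; 95% confidence interval 0.04 to 0.66), with an unadjusted p of 0.031 and an adjusted p of 0.290 by limma. Mbp thus had equal means with all 8 arrays and a higher mean in Prep1deltaSM muscle without that 1, and neither setting passed the threshold. Because that array was left out for its high value, a rise of the difference was fixed in advance.

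Mbp had 3 probes, which did not read alike. The 10-spot probe described above (A_51_P349205) lies at chr18:82754755-82754814. A second probe of the same transcript (A_52_P329451), whose annotated span runs from 82742266 to 82744570, gave -2.40, -2.64, -2.90 and -2.58 in Prep1deltaSM muscle, against -3.10, -3.56, -2.44 and -2.66 in Prep1f/+ muscle. On it Prep1f/+ replicate 3 was second to Prep1deltaSM replicate 1, and the difference was 0.31 ± 0.24 (SE, limma). The remaining probe (A_52_P604195), which the array lists under another transcript, gave -1.70, -1.71, -1.81 and -1.91 in Prep1deltaSM muscle, against -1.99, -1.45, -1.55 and -1.31 in Prep1f/+ muscle. Its highest array was Prep1f/+ replicate 4, and its difference was -0.21 ± 0.15 (SE). The high value of Prep1f/+ replicate 3 therefore stood apart on the 10-spot probe and did not on A_52_P604195.

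**Figure D2:**
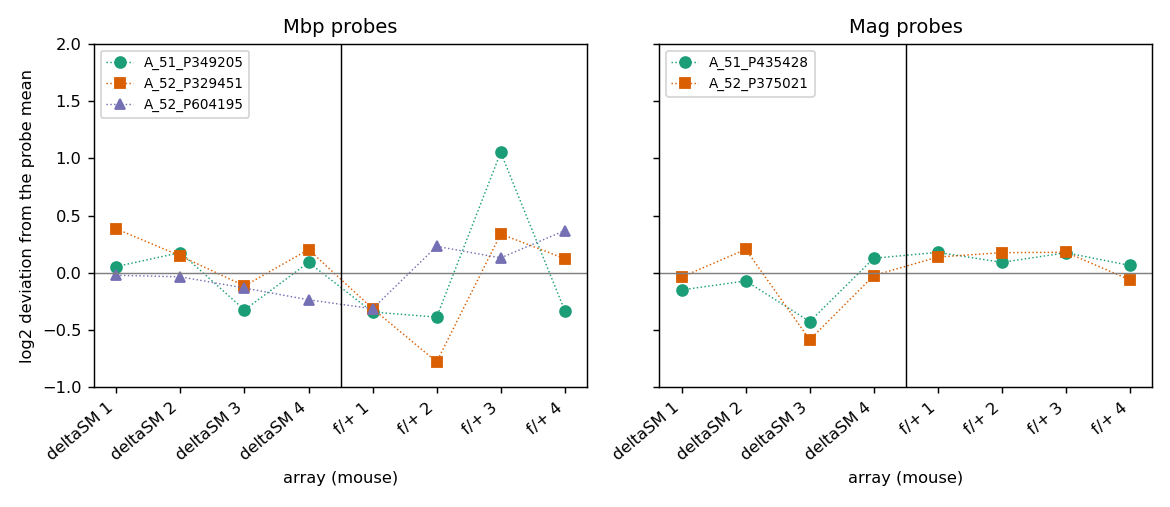
Deviation of each probe of Mbp (left) and Mag (right) from its own mean over the 8 arrays, in log2 units, with Prep1deltaSM mice left of the line and Prep1f/+ mice right of it. Points are single arrays and dotted lines join the arrays of a probe. Of the Mbp probes, A_51_P349205 reaches 1.05 in Prep1f/+ replicate 3, whereas both Mag probes are lowest in Prep1deltaSM replicate 3.

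Pmp22 encodes peripheral myelin protein 22, a membrane protein of compact myelin that fibroblasts and other cells also make. Its log2 signal was 3.57, 3.29, 3.47 and 3.49 in Prep1deltaSM muscle, against 3.27, 3.58, 4.14 and 3.74 in Prep1f/+ muscle. Prep1f/+ replicate 3 was again highest and Prep1f/+ replicate 1 lowest, so that the Prep1f/+ values enclosed all of the Prep1deltaSM values. The mean was 3.46 ± 0.12 in Prep1deltaSM muscle and 3.68 ± 0.36 in Prep1f/+ muscle (SD, n = 4 each), a difference of -0.23 ± 0.17 (SE; 95% confidence interval -0.62 to 0.17; adjusted p = 0.545, limma). With Prep1f/+ replicate 3 left out it was -0.07 ± 0.14 (SE). The second Pmp22 probe (A_52_P1067763), annotated to the minus strand and not the plus strand of the first, was well above background on 0 arrays.

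Prx encodes periaxin, a scaffold protein of the outer Schwann cell membrane. It read -1.15, -1.32, -1.18 and -1.39 in Prep1deltaSM muscle, against -1.61, -1.99, -1.08 and -1.70 in Prep1f/+ muscle. Here the 4 Prep1deltaSM values lay close together just below Prep1f/+ replicate 3, which led the next array by 0.07, and the other 3 Prep1f/+ values lay below them all. The mean was -1.26 ± 0.11 in Prep1deltaSM muscle and -1.60 ± 0.38 in Prep1f/+ muscle (SD, n = 4 each). The difference was 0.34 ± 0.18 (SE; 95% confidence interval -0.07 to 0.75), with an adjusted p of 0.392 by limma and an exact two-sided permutation p of 0.171 over 70 assignments. Without Prep1f/+ replicate 3 the difference was 0.51 ± 0.12 (SE; 95% confidence interval 0.22 to 0.80; adjusted p = 0.196, limma), and the groups did not overlap.

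Mag encodes myelin-associated glycoprotein, an adhesion molecule of the Schwann cell membrane that faces the axon, and it was the 1 gene of the 7 without a peak in Prep1f/+ replicate 3. Its log2 signal was 0.15, 0.23, -0.12 and 0.43 in Prep1deltaSM muscle, against 0.48, 0.39, 0.48 and 0.36 in Prep1f/+ muscle. The 4 Prep1f/+ values were nearly level, and 3 of the 4 Prep1deltaSM values lay below them all. The mean was 0.17 ± 0.23 in Prep1deltaSM muscle and 0.43 ± 0.06 in Prep1f/+ muscle (SD, n = 4 each), a difference of -0.26 ± 0.12 (SE; 95% confidence interval -0.53 to 0.02; adjusted p = 0.338, limma). The exact two-sided permutation p was 0.0857. Without Prep1f/+ replicate 3 the difference was -0.24 ± 0.14 (SE). The dim second probe (A_52_P375021) gave -0.22 ± 0.16 (SE) and, like the first, was lowest in Prep1deltaSM replicate 3.

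Sox10 encodes the transcription factor that marks Schwann cells and their precursors at all stages. It read -1.55, -1.41, -1.66 and -1.52 in Prep1deltaSM muscle, against -1.92, -1.85, -0.78 and -1.63 in Prep1f/+ muscle. Prep1f/+ replicate 3 was the highest array by 0.63, and 2 of the other 3 Prep1f/+ arrays were the lowest. The mean was -1.53 ± 0.10 in Prep1deltaSM muscle and -1.54 ± 0.53 in Prep1f/+ muscle (SD, n = 4 each), a difference of 0.01 ± 0.24 (SE; 95% confidence interval -0.53 to 0.55; adjusted p = 0.987, limma). Prep1f/+ replicate 3 exceeded the other 3 Prep1f/+ arrays 2.03-fold. Without it the difference was 0.27 ± 0.11 (SE; unadjusted p = 0.044, adjusted p = 0.306, limma), and the groups still overlapped.

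Egr2 encodes the zinc finger factor that drives the myelin genes. Its log2 signal was -1.70, -1.92, -1.56 and -1.73 in Prep1deltaSM muscle, against -1.48, -1.99, -1.04 and -1.35 in Prep1f/+ muscle. Prep1f/+ replicate 3 was highest and Prep1f/+ replicate 2 lowest, with the Prep1deltaSM values between. The mean was -1.73 ± 0.15 in Prep1deltaSM muscle and -1.46 ± 0.40 in Prep1f/+ muscle (SD, n = 4 each), a difference of -0.27 ± 0.19 (SE; 95% confidence interval -0.70 to 0.17; adjusted p = 0.515, limma). Leaving out Prep1f/+ replicate 3 gave -0.12 ± 0.17 (SE). The mean deviation of the 10 immediate early genes tested was -0.15 in Prep1f/+ replicate 3 and highest, at 0.79, in Prep1f/+ replicate 4. Egr1, a relative of Egr2 in that list, was highest in Prep1f/+ replicate 1, with a difference between genotypes of -1.55 ± 0.59 (SE; adjusted p = 0.267, limma). Of the 10 genes, 5 were higher and 5 lower in Prep1deltaSM muscle. An unadjusted p under 0.05 (limma) was reached by 3, all lower, against 15.9% of all genes in either direction. The part of an immediate early response in the Egr2 values was not tested.

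S100b encodes a calcium-binding protein used to stain Schwann cells, terminal ones included. It read 0.14, 0.14, -0.11 and 0.06 in Prep1deltaSM muscle, against -0.31, 0.12, 0.91 and -0.14 in Prep1f/+ muscle. Prep1f/+ replicate 3 was highest by 0.76, and the Prep1deltaSM values fell within the range of the other 3 Prep1f/+ arrays or just above it. The mean was 0.06 ± 0.12 in Prep1deltaSM muscle and 0.14 ± 0.54 in Prep1f/+ muscle (SD, n = 4 each), a difference of -0.09 ± 0.24 (SE; 95% confidence interval -0.64 to 0.47; adjusted p = 0.887, limma). Prep1f/+ replicate 3 exceeded the other 3 Prep1f/+ arrays 2.02-fold, and without it the difference was 0.17 ± 0.13 (SE), of the opposite sign.

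**Figure D3:**
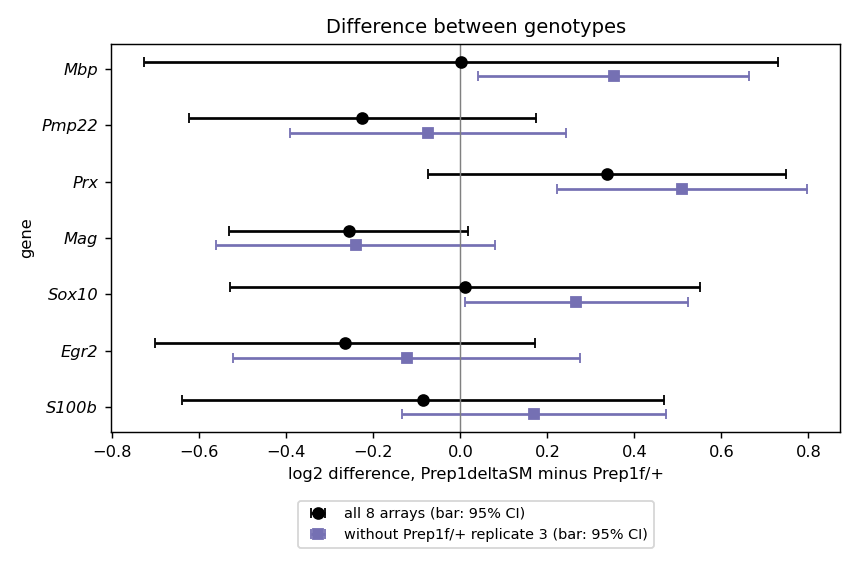
Difference in log2 signal, Prep1deltaSM minus Prep1f/+, of each gene (horizontal axis), with 95% confidence intervals from limma, for all 8 arrays (black circles) and without Prep1f/+ replicate 3 (purple squares). All 7 intervals cross 0 with all arrays. Those of Mbp, Prx and Sox10 lie above 0 without Prep1f/+ replicate 3, an array singled out for its high values of these genes.

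Leaving out Prep1f/+ replicate 3 therefore turned the sign of S100b and changed the size of several other differences. The differences of Mbp and Sox10, which lie near 0, turned sign when some of the other arrays were left out. When Prep1f/+ replicate 3 was left out, 4 of the 7 genes were higher and 3 lower in Prep1deltaSM muscle, with a median difference of 0.17. An unadjusted p under 0.05 was reached by 3 genes of 7, Mbp, Prx and Sox10, against 15.6% of all genes, and an adjusted p under 0.05 by 0 (limma), against 0.0% of all genes. The groups did not overlap for 2 genes, Mbp and Prx, both higher in Prep1deltaSM muscle, against 5.44% of all genes in that direction and 9.86% in the other. That array was singled out as the highest for 6 of the 7 genes, so leaving it out raised their differences by construction. The shares over all genes were not picked in that way. These counts are therefore a description and not a test of genotype. With background correction by normexp and quantile normalization, the differences with all arrays shrank to 0.17 for Prx, -0.11 for Pmp22 and -0.12 for Egr2. That setting adds an offset of 50 to the signals, and the difference of Pknox1 shrank too, from -1.76 to -0.89. The adjusted p of Prx was 0.407 there, against 0.392 in the main fit (limma).

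Each slide held 1 array of each genotype, so the difference can also be read within slides. On slide 2, which held Prep1f/+ replicate 3, Prep1deltaSM minus Prep1f/+ was -0.87 for Mbp, -0.85 for Pmp22, -0.23 for Prx, -0.63 for Sox10, -0.88 for Egr2 and -0.77 for S100b. On slides 1, 3 and 4 it was 0.44, 0.43 and 0.01 for Mbp. The corresponding values were 0.84, 0.22 and 0.52 for Prx and 0.02, 0.37 and 0.03 for S100b. Prx was thus higher in Prep1deltaSM muscle on every slide except the one with Prep1f/+ replicate 3. Mag was lower on all 4 slides, at -0.24, -0.25, -0.05 and -0.49 on slides 1 to 4. On slides 1, 3 and 4 the difference was 0.30, 0.40 and -0.03 for Sox10. It was -0.01, 0.23 and -0.27 for Pmp22, and 0.29, -0.25 and -0.22 for Egr2.

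Taken as deviations from each gene's mean over the 8 arrays, the 7 genes averaged 0.02, -0.03, -0.13 and 0.00 in Prep1deltaSM replicates 1 to 4, against -0.19, -0.22, 0.61 and -0.06 in Prep1f/+ replicates 1 to 4. The 4 Prep1deltaSM muscles lay close together, and the Prep1f/+ muscles held both the highest and the lowest averages. The median SD within genotypes was 0.30 for the 7 genes, against 0.19 for all genes tested. Mbp, Sox10 and S100b were at least 1 log2 unit above the mean of the other 3 Prep1f/+ arrays in Prep1f/+ replicate 3, as were 1.45% of all genes.

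**Figure D4:**
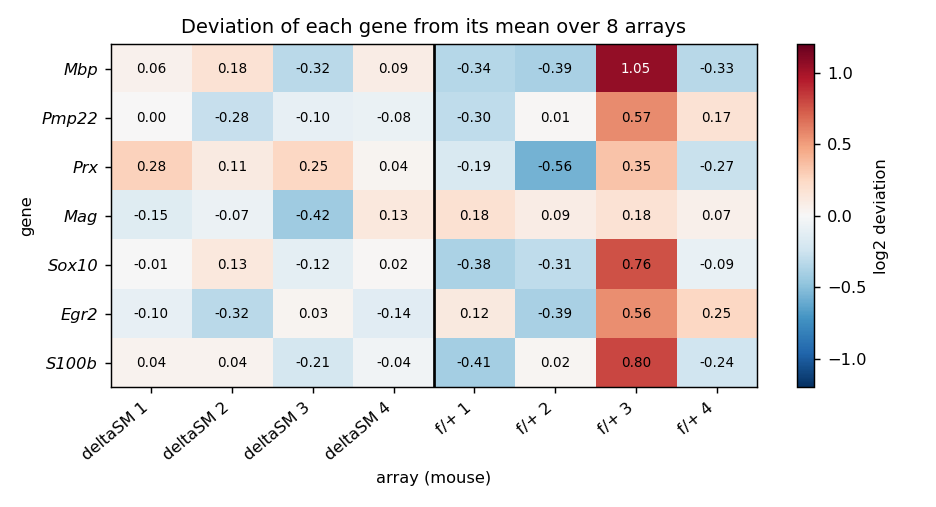
Log2 deviation of each gene (rows) from its own mean over the 8 arrays, with the 4 Prep1deltaSM arrays left of the line and the 4 Prep1f/+ arrays right of it. Red is above and blue below the mean. Prep1f/+ replicate 3 ranges from 0.18 for Mag to 1.05 for Mbp.

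The genes were compared in all 21 pairs over the 8 arrays, with exact permutation p-values adjusted over the pairs. Mbp and Sox10 moved together (Pearson r = 0.966, adjusted exact p = 0.0047; Spearman rho = 0.952, adjusted exact p = 0.024). Without the 2 arrays farthest from the median of Mbp their r was 0.773, without Prep1f/+ replicate 3 it was 0.851, and on deviations from the genotype means it was 0.966. No other pair passed the adjustment. Mbp with S100b had r = 0.922 and S100b with Sox10 had r = 0.913 (adjusted exact p = 0.077 for both), and these fell to 0.633 and 0.599 without Prep1f/+ replicate 3. Over the 15 pairs without Mag the median r was 0.66, and it was 0.16 without that array, so most of the shared movement rested on 1 muscle. The 6 pairs with Mag had r between -0.42 and 0.28.

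Of a list of 30 other genes of myelinating Schwann cells, 26 were tested, and 14 of these were highest in Prep1f/+ replicate 3, against the 15.8% of all genes given above. The list was not limited to genes that Schwann cells alone make, and Dag1 and Lama2 are among the 14. Which cells gave the signal of each gene was not tested. At an adjusted p under 0.05, 0 of the 26 passed (limma), against 0.00624% of all genes. At an unadjusted p under 0.05, 0 passed, against 15.9% of all genes. They were higher for 16 and lower for 10 genes in Prep1deltaSM muscle, with a median difference of 0.05, which was 0.15 without Prep1f/+ replicate 3. For all genes tested, 37.3% were higher and 62.7% lower.

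Several wide-ranging genes of the list peaked in the same muscle. Prep1f/+ replicate 3 exceeded the mean of the other 3 Prep1f/+ arrays by 1.39 log2 units for Fa2h, which makes hydroxylated myelin lipids, and by 1.10 for Pou3f1, a transcription factor of promyelinating Schwann cells. The excess was 1.19 for A330049M08Rik, the older symbol of the myelin protein gene Ncmap, and 1.09 for Bcas1, a gene of myelinating cells. Drp2, which encodes a dystrophin-related partner of periaxin, was highest in Prep1deltaSM replicate 1, with a difference of 0.76 ± 0.38 (SE; adjusted p = 0.36, limma). Drp2 was dim, at -5.79 to -4.01, about as dim as the second Mag probe, at -5.12 to -4.33. Gjb1, the gene of connexin 32, was among several genes of the list that, like Mag, did not peak in Prep1f/+ replicate 3. For Gjb1 that array lay -0.16 from the mean of the other 3 Prep1f/+ arrays. Pmp2, Gldn, Ugt8a and Gal3st1 were not well above background on enough arrays to be tested.

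Genes of Schwann cells outside myelin were mixed. Of 20 listed, 14 were tested and 6 were highest in Prep1f/+ replicate 3, against 15.8% of all genes. Their median difference was 0.01 (0.04 without that array). Kcna1, a potassium channel gene of this list, exceeded the mean of the other 3 Prep1f/+ arrays by 1.10 in Prep1f/+ replicate 3, and Sostdc1 by 1.35. Ngfr, the neurotrophin receptor of non-myelinating and injured Schwann cells, lay -0.39 from them in that array, L1cam -0.86 and Ednrb -0.45. The difference between genotypes was -0.25 ± 0.28 for Ngfr, 0.72 ± 0.34 for L1cam, -0.32 ± 0.48 for Sostdc1 and 0.03 ± 0.36 for Ednrb (SE). L1cam and Sostdc1 were dim, with lowest values of -5.19 and -5.01. At an adjusted p under 0.05, 0 of the 14 genes passed (limma), against 0.00624% of all genes. At an unadjusted p under 0.05, 1 of the 14 passed, against 15.9% of all genes. Gfap, Cdh19, Sox2, Cdh2, Col28a1 and Fabp7 were not tested for want of signal.

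Markers of other cells and of axons were read in the same way. For all genes, 15.8% were highest in Prep1f/+ replicate 3. Perineurial and endoneurial genes, those of the nerve sheath, had 9 of 10 tested, 5 of them highest in Prep1f/+ replicate 3. Their mean deviation ranged from -0.25 to 0.16 in Prep1deltaSM muscle and from -0.13 to 0.47 in Prep1f/+ muscle, with the 0.47 in Prep1f/+ replicate 3. Their median difference was -0.13 (0.08 without that array). Of 12 axon genes 3 were tested, with a mean of -0.36 to 0.08 in Prep1deltaSM muscle and -0.16 to 0.27 in Prep1f/+ muscle and a median difference of -0.29. Nefl, Nefm, Gap43, Snap25, Syt1 and Slc18a3 were well above background on 0 arrays. Whether the RNA of the axon list reads the nerve content of a muscle was not tested. Neuromuscular junction genes, 11 of 12 tested, ranged from -0.22 to 0.21 in Prep1deltaSM muscle and from -0.20 to 0.30 in Prep1f/+ muscle. The 0.30 was that of Prep1f/+ replicate 3, in which 4 of the 11 genes were highest, and the median difference was 0.00.

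Of the other cell types known to express some of the 7 genes, oligodendrocyte genes had 4 of 10 tested, and Mog, Opalin, Olig1, Ermn and Omg were well above background on 0 arrays. Their mean ranged from -0.16 to 0.24 in Prep1deltaSM muscle and from -0.14 to 0.17 in Prep1f/+ muscle, none of the 4 was highest in Prep1f/+ replicate 3, and the median difference was 0.00. Melanocyte genes had 2 of 6 tested, and Tyr, Tyrp1 and Mlana were well above background on 0 arrays. Those 2 ranged from -0.57 to 0.18 in Prep1deltaSM muscle and from -0.88 to 0.73 in Prep1f/+ muscle, where replicate 3 was highest, with a median difference of -0.51. The 2 genes went opposite ways. Mitf had a difference of 0.06 ± 0.11 (SE) and was lowest in Prep1f/+ replicate 3. Dct, which was dim, had a difference of -1.08 ± 0.70 (SE). It read -3.04 in Prep1f/+ replicate 3, its highest array, and -6.33 in Prep1f/+ replicate 4, its lowest. Immediate early genes, 10 of 12 tested, had a median difference of 0.00, with means of -0.63 to 0.26 in Prep1deltaSM muscle and -0.24 to 0.79 in Prep1f/+ muscle.

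Adipocyte genes, 9 of 10 tested, had the widest range of list means among these lists. They averaged 0.78, -1.65, 0.62 and -1.04 in Prep1deltaSM muscle, against -0.02, 0.81, 0.83 and -0.34 in Prep1f/+ muscle. Prep1f/+ replicate 3 was the highest of the 8, with Prep1f/+ replicate 2 and Prep1deltaSM replicate 1 next to it. The median adipocyte difference was -0.87. Macrophage and leukocyte genes, 12 of 13 tested, ranged from -0.45 to 0.12 in Prep1deltaSM muscle and from -0.09 to 0.46 in Prep1f/+ muscle, with a median difference of -0.46 and 7 genes and the list mean highest in Prep1f/+ replicate 3. Fibroblast genes, 11 of 11 tested, ranged from -0.62 to 0.27 in Prep1deltaSM muscle and from -0.23 to 0.37 in Prep1f/+ muscle, with a median difference of -0.42 and 6 genes and the list mean highest in that array.

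Endothelial genes, 8 of 8 tested, ranged from -0.14 to 0.11 in Prep1deltaSM muscle and from -0.17 to 0.29 in Prep1f/+ muscle, with a median difference of -0.05. Skeletal muscle genes, 11 of 11 tested, ranged from -0.05 to 0.08 in Prep1deltaSM muscle and from -0.12 to 0.09 in Prep1f/+ muscle, and their lowest array, at -0.12, was Prep1f/+ replicate 3. Their median difference was 0.04. In all of these lists 0 genes passed an adjusted p of 0.05 with or without Prep1f/+ replicate 3 (limma). At an unadjusted p under 0.05, 6 of 11 fibroblast genes and 4 of 12 macrophage and leukocyte genes passed, all lower in Prep1deltaSM muscle, against 15.9% of all genes in either direction. So did 3 of 10 immediate early genes and 1 of 3 axon genes, also lower. Of 8 endothelial genes 1 passed as higher and 1 as lower, and 1 of 11 passed as higher in both the skeletal muscle and the neuromuscular junction list. In the perineurial and endoneurial, oligodendrocyte, melanocyte and adipocyte lists 0 passed. Of all 14 lists, the 7 myelin genes included, 9 had their highest mean in Prep1f/+ replicate 3. The part of nerve sheath, fat, leukocyte or connective tissue content in the myelin gene values was not tested.

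**Figure D5:**
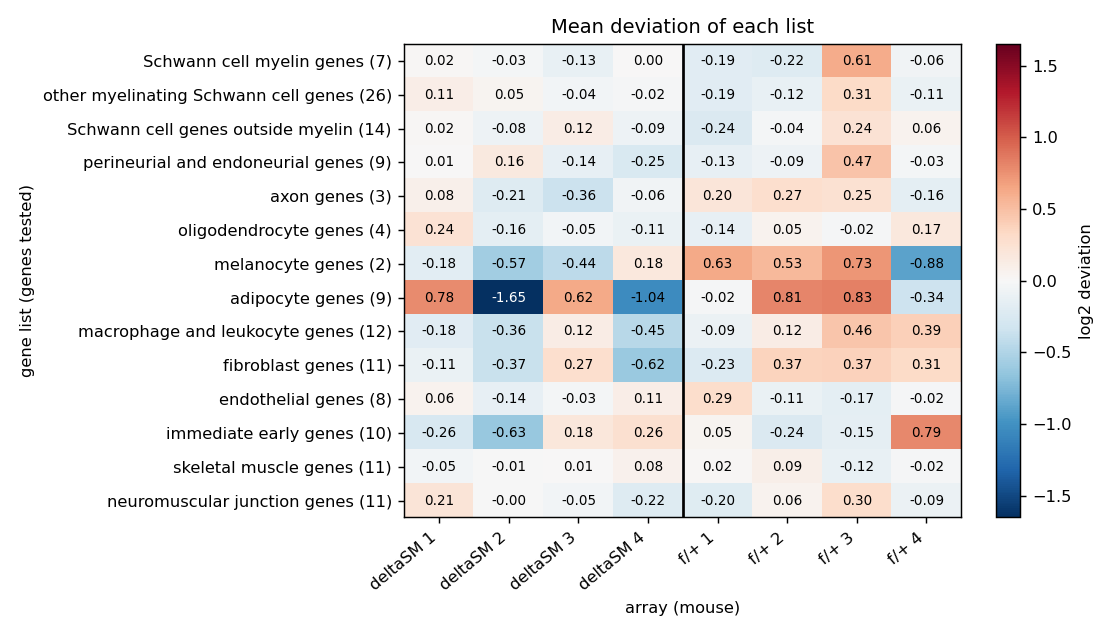
Mean log2 deviation of the tested genes of each list (rows, number of genes in brackets) from their own means over the 8 arrays, with Prep1deltaSM arrays left of the line and Prep1f/+ arrays right of it. Red is above and blue below the mean. The Schwann cell myelin genes reach 0.61 in Prep1f/+ replicate 3, the other myelinating Schwann cell genes 0.31 and the perineurial and endoneurial genes 0.47, and 9 of the 14 lists have their highest mean in that array.

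The promoters of the members were searched for short motifs of SOX, EGR and MEIS or PREP factors in the 250 bases before the most upstream start in RefSeq (GRCm38.p6). The table held 5 of the 7 genes, Egr2, Mag, Pmp22, Prx and S100b. Both strands were searched for the SOX core ACAAAG or ACAAT, the EGR motif GCGTGGGCG or its looser form GCGNGGGCG, which contains it, and the MEIS and PREP core TGACAG. Of the 5 promoters 1 held a match, that of Mag, with ACAAAG on the strand opposite to the gene, 67 bases before the start (capitals). Among all 32851 promoters, 16.5% held ACAAAG, 27.7% ACAAT, 0.536% GCGTGGGCG, 4.70% GCGNGGGCG and 15.9% TGACAG. The promoters of Prx and S100b are shown beside that of Mag as examples of genes highest in Prep1f/+ replicate 3. There Prx led the next array by 0.07 and S100b by 0.76. Pmp22 and Egr2 were also highest there, by 0.40 and 0.31, and their promoters are not shown.
Mag promoter (chr7:30914923-30915172, minus strand): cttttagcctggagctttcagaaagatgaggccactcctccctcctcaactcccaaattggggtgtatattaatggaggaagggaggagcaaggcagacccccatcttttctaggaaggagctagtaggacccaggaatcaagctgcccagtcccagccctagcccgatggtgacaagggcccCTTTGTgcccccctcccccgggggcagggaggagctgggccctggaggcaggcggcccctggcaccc
Prx promoter (chr7:27499074-27499323, plus strand): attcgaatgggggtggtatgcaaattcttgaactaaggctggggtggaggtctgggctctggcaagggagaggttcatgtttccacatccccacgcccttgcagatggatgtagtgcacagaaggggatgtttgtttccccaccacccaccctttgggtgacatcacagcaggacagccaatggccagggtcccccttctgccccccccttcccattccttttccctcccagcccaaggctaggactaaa
S100b promoter (chr10:76253586-76253835, plus strand): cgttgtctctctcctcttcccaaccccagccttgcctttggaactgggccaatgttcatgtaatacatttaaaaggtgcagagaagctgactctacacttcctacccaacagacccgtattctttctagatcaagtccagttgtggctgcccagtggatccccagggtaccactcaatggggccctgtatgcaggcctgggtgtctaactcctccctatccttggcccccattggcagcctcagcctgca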

How the data were processed

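Cy3-labelled RNA of 8 tibialis anterior muscles was read on Agilent arrays of design 014868. The deposited spot intensity (gProcessedSignal) is background-subtracted and not normalized between arrays, per the file headers, which name Feature Extraction 10.5.1.1 and protocol GE1_107_Sep09. Version 9.1 stands in the submitters' processing notes, and which of them applies was not settled. Of 32812 rows of intensity in a second table that the authors deposited, linear and not centred, 26233 lay within 0.1 log2 of quantile-normalized scanner values and served as an alternative.

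The array's 75th percentile was subtracted on the log2 scale. Non-uniform spots (0 to 11 per array) were set missing, spots of a probe were averaged, and no spot was saturated. Kept were 24488 of 41174 probes, those well above background on at least 4 of 8 arrays, and the brightest stood for its gene. Genotypes were compared by limma 3.58.1 (lmFit, eBayes; R 4.3.3), tested on simulated data, with Benjamini-Hochberg adjustment over 16016 genes. Single values and pairs of genes were given exact permutation tests.

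The members and the lists were chosen with earlier results of these data known. Named were all members and probes, the 6 genes with the widest range in each of the other 2 Schwann cell lists, a few set markers with Gjb1 and Ngfr among them, genes a statement turned on, and the 10 genes most like the member mean. Some of these genes and a probe sequence are not reported here. The alternatives tried were quantile normalization, normexp (offset 50) followed by it, median centring, no filter or a filter on all arrays, the mean of a gene's probes, each probe as its own row, the table of the authors, a slide block, a trended robust variance, keeping non-uniform spots and dropping each array in turn. A single scan day gave no scan batches to test.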

Additional observations from a re-analysis of the deposited data

Results flagged for a closer look

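Of 42 sets of 4 arrays, 5 had 1 array whose gap to the nearest other, divided by the range of the set, exceeded Dixon's critical value for 4, where chance gives about 2.1. Mbp did so in Prep1f/+ muscle, with replicate 3 high at a ratio of 0.96. The mean of the other myelinating Schwann cell genes had the same array high at a ratio of 0.833, as did the mean of the perineurial and endoneurial genes at 0.841. The mean of the 2 melanocyte genes tested had Prep1f/+ replicate 4 low at 0.875, and the mean of the fibroblast genes had Prep1f/+ replicate 1 low at 0.902. Of the 2 melanocyte genes, Dct was lowest in Prep1f/+ replicate 4, at -6.33, and Mitf was not.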

How the results depend on the processing

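Over 129 values of the 7 genes under 19 alternatives, 114 kept their direction, 15 turned it, and 0 passed an adjusted p of 0.05, the lowest being 0.196 for Prx without Prep1f/+ replicate 3. The values that turned belonged to Mbp and Sox10, whose differences lie near 0, and to S100b. With normexp and quantile normalization Mbp was -0.016 and Sox10 -0.0381, and with median centring Mbp was -0.0147 and Sox10 -0.0056. With each array left out in turn, the difference ranged from -0.13 to 0.35 for Mbp, from -0.12 to 0.27 for Sox10 and from -0.24 to 0.17 for S100b, with the highest value of each without Prep1f/+ replicate 3. The number of members highest in that array was 6 or 7 under the alternatives run. The genes of 16016 past an adjusted p of 0.05, 1 in the fit described, numbered 26 with normexp and quantile normalization, 20 with a trended robust variance, 0 with slide as a block and 0 to 5 with each array left out. The authors' values held matching rows for Pmp22, Prx and S100b alone, with differences of -0.15, 0.34 and -0.07. The cause of these changes was not tested. The labels give the mice no shared replicate numbers, so the slide was the one block that could be fitted, and with it the adjusted p of the 7 genes lay between 0.330 and 0.998. Signal limits the second probes of Mag and Sox10, which were near background, and the dim genes Drp2, L1cam, Sostdc1 and Dct.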

Other observations

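The 10 genes outside the 7 whose signal was most like their mean deviation over the 8 arrays were named by Pearson r, as a description of arrays that share one high muscle. Moxd1, a gene of the nerve sheath list, came first with r = 0.973, and r = 0.869 without Prep1f/+ replicate 3. It read -2.08, -2.21, -2.14 and -2.16 in Prep1deltaSM muscle, against -2.48, -2.52, -1.32 and -2.16 in Prep1f/+ muscle. Zfp275, Col23a1, Gpr37l1 (a receptor of glial cells) and Mamdc2 followed with r of 0.947, 0.935, 0.935 and 0.912. Camsap2, Zfp708, Bcap31, Ythdc1 and A030005L19Rik had r between 0.884 and 0.902. Without Prep1f/+ replicate 3, r was 0.919 for Camsap2 and 0.117 for Bcap31.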
